A study of Rattus norvegicus with 8 samples.

Results

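Glucocorticoid signalling was examined in rat cerebral cortex through 10 genes: the receptor genes Nr3c1 and Nr3c2, the target genes Fkbp5, Tsc22d3, Sgk1, Sult1a1, Pdk4, Ddit4 and Cdkn1a, and the activating enzyme Hsd11b1. Every probe whose target transcript is annotated to one of these symbols was taken, which gave 17 of the 41012 probes on the array. Of these, 15 were well above background on every array of at least 1 group, and they covered 9 of the 10 genes. The animals were Wistar rats, 8 weeks of age when sampled. The 4 rats of the hypoxia-ischemia (HI) group, called Rice in the study, had the left carotid artery tied and cut at 7 days of age under ether, recovered for 1 to 2 h, and then breathed 8% oxygen for 1 h at 33 °C. The 4 control rats had no insult, and no sham operation or anaesthesia is described for them. RNA came from the cortex opposite the insult in HI rats and from the same side in controls, so the tissue is not the injured side itself, and each animal was hybridised to an array of its own. Hour of killing, sex and corticosterone in blood are not described.

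Corticosterone, the main glucocorticoid of the rat, crosses the cell membrane and binds the glucocorticoid receptor (Nr3c1) or the mineralocorticoid receptor (Nr3c2), which binds it with the higher affinity. Unbound receptor is held in the cytoplasm by heat shock proteins and immunophilins. Bound receptor enters the nucleus and acts on target genes, among them Fkbp5, whose product lowers the receptor's affinity for hormone and so closes a feedback loop. In brain these transcripts follow the hour of day and recent stress, and many are carried by astrocytes and endothelium as well as by neurons.

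Promoter windows are shown for Sult1a1, Fkbp5 and Tsc22d3, the target genes whose unadjusted p came out under 0.05. Each runs from 250 bases before to 50 bases after a transcript start in RefSeq (GRCr8 assembly) and is given 5′ to 3′ on the gene's strand, the minus strand in all 3. The Sult1a1 window lies at chr1:190706063-190706362. The Fkbp5 window lies at chr20:6543506-6543805. The Tsc22d3 window, the one of its 3 windows that holds a TATAAA, lies at chrX:109009985-109010284. Capitals mark AGAACA in Sult1a1, one arm of the receptor's palindromic motif, and TATAAA in Tsc22d3.
Sult1a1: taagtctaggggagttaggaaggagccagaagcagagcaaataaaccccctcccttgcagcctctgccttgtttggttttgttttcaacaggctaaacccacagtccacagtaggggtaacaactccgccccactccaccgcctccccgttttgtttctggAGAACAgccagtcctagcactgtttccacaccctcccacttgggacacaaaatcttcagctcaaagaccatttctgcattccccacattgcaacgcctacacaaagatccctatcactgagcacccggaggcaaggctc
Fkbp5: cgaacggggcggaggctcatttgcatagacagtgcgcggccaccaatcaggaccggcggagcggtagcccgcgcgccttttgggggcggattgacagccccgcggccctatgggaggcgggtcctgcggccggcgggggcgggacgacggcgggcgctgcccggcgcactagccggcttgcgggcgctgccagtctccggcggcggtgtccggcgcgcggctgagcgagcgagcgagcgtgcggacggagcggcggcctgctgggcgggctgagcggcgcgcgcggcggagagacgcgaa
Tsc22d3: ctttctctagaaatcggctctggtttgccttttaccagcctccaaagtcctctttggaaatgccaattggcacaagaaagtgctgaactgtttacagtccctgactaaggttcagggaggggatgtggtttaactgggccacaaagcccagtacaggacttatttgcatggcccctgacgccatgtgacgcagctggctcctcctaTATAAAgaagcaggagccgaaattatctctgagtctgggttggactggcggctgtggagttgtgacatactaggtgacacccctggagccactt
Among all members, 13 windows of 8 genes were in the table. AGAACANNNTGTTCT, the receptor's full motif, was searched on both strands and occurred in none of the 13, against 0.0149% of all 33469 windows. The arm AGAACA, which forms the first 6 letters of the full motif, was found on either strand in 1 of 13 windows, against 20.7% of all windows. It stands 89 bases before the Sult1a1 start. TATAAA, on either strand, was found in 3 of 13 windows, against 14.2% of all. These were the Tsc22d3 window shown, where it stands 44 bases before the start, and 2 windows of Sgk1. The GC share was 77.0% in the Fkbp5 window, 52.3% in that of Sult1a1 and 50.7% in that of Tsc22d3.

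Levels are log2 of the scanner's processed signal divided by the array's 75th percentile, so that 0 is that percentile and 1 unit is a doubling. Changes are HI minus control on this scale. Control 1 stood apart: its 75th percentile was 234.2 intensity units, against 436.1 to 510.2 on the others, and its levels correlated at 0.902 to 0.927 with those of other arrays, against 0.967 to 0.993 among the other 7. All HI arrays were on one slide and scan and all control arrays on another, so a difference between slides or scans cannot be told apart from one between groups. The share of probes well above background was 62.9% to 64.8% on HI arrays and 57.6% to 66.2% on control arrays. Marker genes were set beside the cortical label. All 3 glutamatergic markers that had a probe, of 5 listed, and all 5 GABAergic markers were measured. The summed level of 2 hippocampal markers, of 4 listed, was 4.87 to 5.26 on HI arrays and 4.21 to 5.23 on controls. Of 5 striatal markers, Drd1 and Drd2 were not well above background, and Adora2a, Ppp1r1b and Penk were measured on all 8 arrays. The summed level of those 3 was 1.08 to 1.39 on HI arrays and 1.45 to 1.73 on controls, without overlap. Of the 3, 2 had a change above 0 and 1 below it, with a median change of 0.08. The 1 below 0 was Penk, which cortical neurons express too, at -0.58 (SE 0.16). The part of such tissue differences in the members' changes was not tested. The design has 4 arrays a group, which limits the precision of every value.

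Most members measured higher in HI cortex, and all 9 that were tested were well above background on all 8 arrays. None passed limma's test after adjustment over all genes. Of the 9 members tested, 7 had a change above 0, against 47% of all 21674 genes, and their median change was 0.57, against -0.03 over all genes. The members were chosen with earlier results of these data known, so these shares are not an independent test. At an adjusted p under 0.05 the count was 0 of 9, and the share of all genes called was 0.918% (0.194% higher and 0.724% lower). With array weights 2 members, Fkbp5 and Tsc22d3, passed where 6.17% of all genes did. Without control 1 and HI 2 together 1 member, Tsc22d3, passed where 3.23% of all genes did, and 6 members had groups that did not overlap, against 28.7% of all genes. At an unadjusted p under 0.05 there were 4, namely Fkbp5, Tsc22d3 and Sult1a1 on the higher side and Nr3c1 on the lower. Over all genes 10.6% reached that level, 4.44% higher and 6.15% lower. Leaving out 1 array at a time gave 6 members without control 1, 4 without HI 4, 3 without control 2, 2 without HI 1, HI 2 or control 3, and 1 without HI 3 or control 4. The 6 were read against 20.6% of all genes (9.92% higher and 10.7% lower), and the other counts against 7.2% to 11.3%. In 2 members, Sult1a1 (higher) and Nr3c1 (lower), the groups did not overlap, as in 14.2% of all genes. With median scaling there were also 2, both higher, and the members at an unadjusted p under 0.05 were 5 higher and 0 lower, so that Nr3c1 left both counts. Without control 1 this count was 5, against 21.7% of all genes, and without HI 4 it was also 5, against 17.2%. Higher values without overlap made up 5.97% of all genes and lower ones 8.24%.

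**Figure D1:**
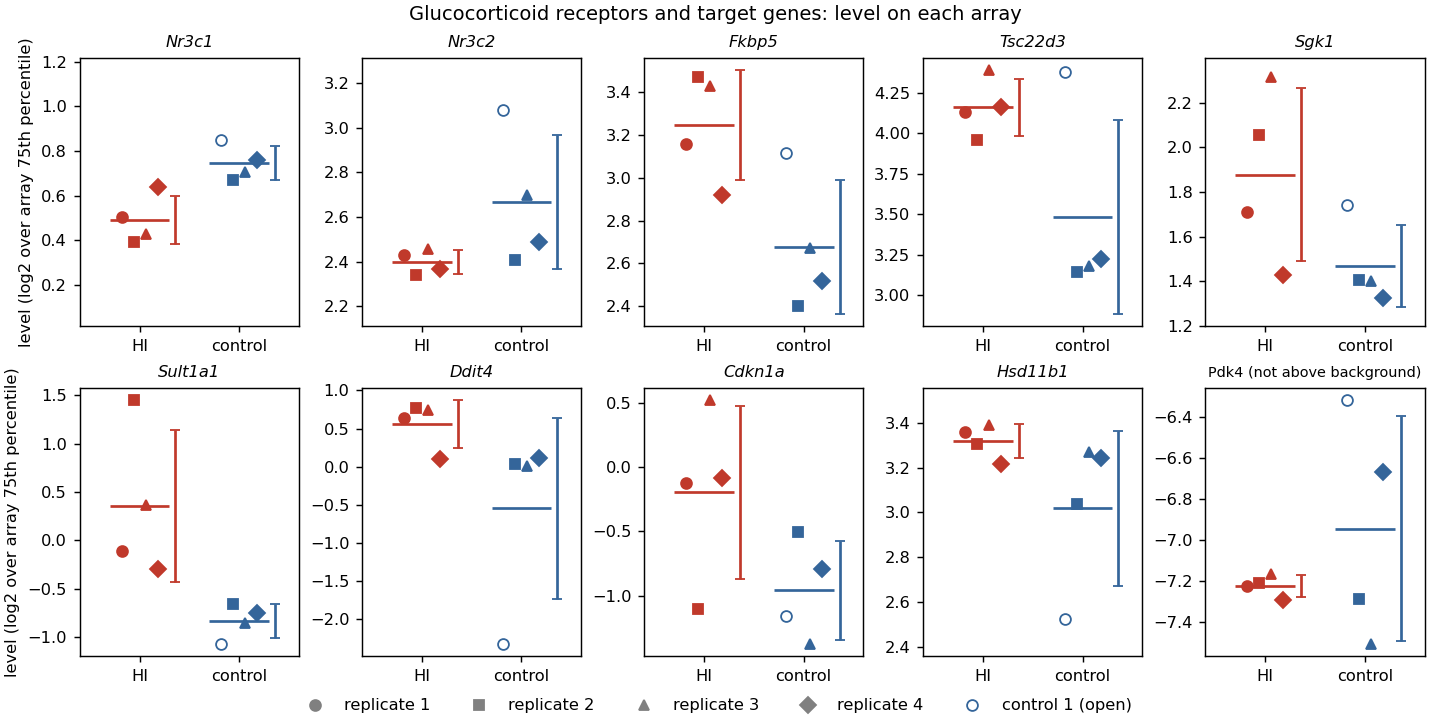
Level of the probe that represents each member (log2 over the array's 75th percentile, vertical axes) on the 4 HI arrays at the left and the 4 control arrays at the right, with group means, bars of ± SD and control 1 as an open circle. The HI points lie wholly above the control points for Sult1a1 and wholly below them for Nr3c1, and control 1 lies far from the other controls for Tsc22d3 and Ddit4.

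Nr3c1 had a lower level on every HI array than on any control array. Its level was 0.50, 0.39, 0.43 and 0.64 on HI 1 to HI 4, against 0.85, 0.67, 0.71 and 0.76 on control 1 to control 4. The highest HI value lies just under the lowest control value. The means were 0.49 ± 0.11 in HI cortex and 0.75 ± 0.08 in control cortex (SD, n = 4 each). That is a fold of 0.837 (95% interval 0.711 to 0.986), a log2 change of -0.26 with a standard error (SE) of 0.10, and limma's adjusted p was 0.425 (unadjusted p = 0.0365). With median scaling the change was -0.18 and the unadjusted p 0.14. In bulk cortex a lower level cannot be told apart from fewer cells of a type that carries the transcript, and this holds for every member below.

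A second Nr3c1 probe, with 1 spot against 10 for the first, read 0.47, 0.43, 0.35 and 0.50 on the HI arrays and 0.38, 0.68, 0.71 and 0.75 on the controls. Here control 1 fell among the HI arrays, and the change was -0.19 (SE 0.12). Without control 1 it was -0.28, close to the -0.22 of the first probe without that array.

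Nr3c2, the mineralocorticoid receptor gene, was at 2.43, 2.34, 2.46 and 2.37 on the HI arrays, against 3.08, 2.41, 2.70 and 2.49 on the controls. The HI arrays lay close together, and control 2 fell within their range. Its fold was 0.829 (95% interval 0.646 to 1.07), with limma's adjusted p at 0.564. A dimmer second probe had a change of -0.54 (SE 0.29), with control 1 at -2.28 above all the other arrays, which ran from -3.98 to -3.30. Without control 1 the changes were -0.13 for the first probe and -0.26 for the second, so this array moved both by more than 1.5 times.

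Fkbp5, which encodes the immunophilin that restrains the receptor, had higher levels on all 3 of its probes. The probe that represents it was at 3.16, 3.47, 3.43 and 2.92 on HI 1 to HI 4, against 3.12, 2.40, 2.67 and 2.52 on control 1 to control 4. HI 2 and HI 3 were highest, and control 1 was the single control inside the HI range. The means were 3.24 ± 0.26 in HI cortex and 2.68 ± 0.31 in control cortex (SD, n = 4 each), a fold of 1.48 (95% interval 1.09 to 2.02), with limma's unadjusted p at 0.0195 and adjusted p at 0.341.

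The second Fkbp5 probe read 1.34, 1.65, 1.60 and 1.08 on the HI arrays and -0.28, 0.68, 0.96 and 0.89 on the controls. The third read -0.06, 0.15, 0.14 and -0.47 on the HI arrays and -1.93, -1.07, -0.69 and -1.18 on the controls. On both the groups did not overlap, and on all 3 probes HI 4 was the lowest HI array. Control 1 was the highest control on the first probe and the lowest on the other two. The changes were 0.57, 0.86 (SE 0.29) and 1.16 (SE 0.27), and without control 1 they were 0.71, 0.57 and 0.92. In the fit without control 1, the representative probe had an adjusted p of 0.0532. In 4 of the 8 fits that leave out 1 array Fkbp5 had an unadjusted p under 0.05, and its change ran from 0.48 to 0.71 over them.

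Tsc22d3 encodes GILZ, a leucine zipper protein that holds back NF-kB and AP-1 in inflammation. Its level was 4.13, 3.96, 4.39 and 4.16 on HI 1 to HI 4, against 4.38, 3.14, 3.18 and 3.22 on control 1 to control 4. Control 1 lay near the top of the HI range and the other 3 controls lay together well below it. The fold over all 8 arrays was 1.60 (95% interval 1.02 to 2.52), with limma's unadjusted p at 0.0434 and adjusted p at 0.447. Without control 1 the log2 change was 0.98 (SE 0.10) and the adjusted p was 0.0042, in a fit that called 3.64% of 21794 genes. This was the single fit of the 8 that leave out 1 array in which a member passed, and the other 7 gave changes of 0.57 or more at unadjusted p of 0.05 or more.

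The second Tsc22d3 probe, which is much dimmer, read -1.37, -1.21, -1.23 and -1.14 on the HI arrays, against -2.31, -1.85, -1.80 and -1.70 on the controls. Here control 1 was the lowest array and the groups did not overlap. The change was 0.68 (SE 0.15), and 0.54 without control 1. Both probes thus gave a higher HI level, and control 1 stood at opposite ends of the controls on them.

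**Figure D2:**
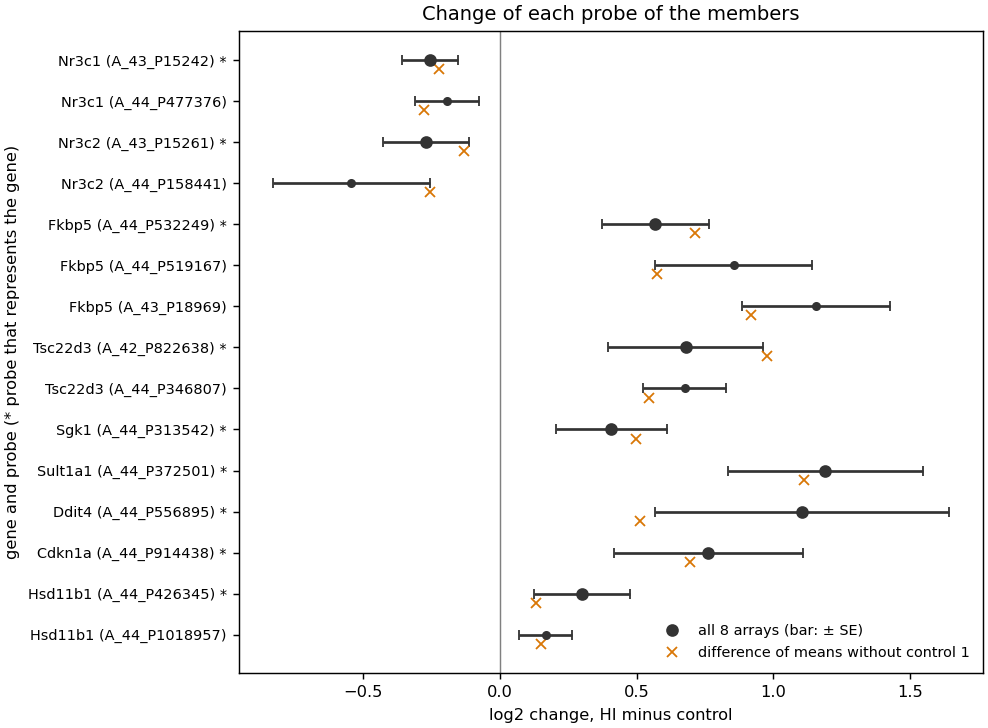
Log2 change (HI minus control, horizontal axis) of each of the 15 member probes kept. Black points with bars give the change over all 8 arrays ± SE, large where the probe represents its gene, and crosses give the difference of means without control 1; the Fkbp5 and Tsc22d3 probes lie right of 0 in both versions and the Nr3c1 and Nr3c2 probes left of it.

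Over the 15 kept probes of all members, the groups did not overlap on 6, with 5 higher and 1 lower, against 14.2% of all 24872 kept probes (6.21% higher and 7.98% lower). At an unadjusted p under 0.05 there were 7, of which 6 were higher, against 10.3% of all kept probes (4.46% higher). None passed adjustment over all probes. The 5 members with more than 1 kept probe each had the same direction on all their probes. Probes of one gene share the animals and the arrays, so they are not replicates.

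Sult1a1, a phenol sulfotransferase known in rat liver to be induced by glucocorticoids, had the largest fold of the members. Its level was -0.11, 1.45, 0.37 and -0.30 on HI 1 to HI 4, against -1.07, -0.66, -0.86 and -0.76 on control 1 to control 4. Every HI array lay above every control, with HI 2 far above the other HI arrays. The means were 0.35 ± 0.78 in HI cortex and -0.84 ± 0.18 in control cortex (SD, n = 4 each), a fold of 2.28 (95% interval 1.29 to 4.05). Limma's unadjusted p was 0.0105 and its adjusted p 0.269. Without HI 2 the log2 change was 0.82 (SE 0.19), with an unadjusted p of 0.00369 and an adjusted p of 0.226. The unadjusted p was under 0.05 in all 8 fits that leave out 1 array, with changes of 0.82 to 1.41.

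Sgk1, the serum- and glucocorticoid-regulated kinase that acts on ion channels and transporters, was at 1.71, 2.05, 2.31 and 1.43 on the HI arrays, against 1.74, 1.41, 1.40 and 1.33 on the controls. HI 2 and HI 3 were above every control and HI 1 and HI 4 were below control 1. The fold was 1.33 (95% interval 0.958 to 1.84), with limma's adjusted p at 0.526. Its change was 0.26 without HI 3 and 0.56 without HI 4, the ends of its range.

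Ddit4, whose product inhibits the growth kinase mTOR and which hypoxia and glucocorticoids both induce, was at 0.64, 0.77, 0.74 and 0.10 on the HI arrays, against -2.32, 0.03, 0.01 and 0.11 on the controls. HI 4 lay with controls 2 to 4, and control 1 lay far below all other arrays. The fold was 2.15 with a 95% interval of 0.909 to 5.08, and limma's adjusted p was 0.521. Without control 1 the log2 change was 0.51 (SE 0.17, unadjusted p = 0.0187, adjusted p = 0.151) against 1.10 (SE 0.54) with it.

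Cdkn1a, an inhibitor of the cell cycle, was at -0.12, -1.10, 0.52 and -0.09 on the HI arrays, against -1.16, -0.51, -1.38 and -0.80 on the controls. HI 2 fell among the controls, the opposite of its place for Sult1a1. The fold was 1.70 (95% interval 0.976 to 2.95), with limma's adjusted p at 0.496. Without HI 2 the log2 change was 1.06 (unadjusted p = 0.00493, adjusted p = 0.258), against 0.76 with it. A second Cdkn1a probe was not well above background on any array.

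Pdk4, the kinase that shuts off pyruvate dehydrogenase, was not well above background on any of the 8 arrays. Its signal lay between -7.29 and -7.16 on the HI arrays and between -7.51 and -6.32 on the controls, and it was not tested. Hsd11b1 regenerates active corticosterone from its inert keto form inside cells. Its level was 3.36, 3.30, 3.39 and 3.22 on the HI arrays, against 2.52, 3.04, 3.27 and 3.24 on the controls. HI 4 lay under the upper 2 controls, and control 1 was lowest. The fold was 1.23 (95% interval 0.929 to 1.63), with limma's adjusted p at 0.566. On its second probe the groups did not overlap, at 1.20 to 1.39 on HI arrays and 1.06 to 1.19 on controls, and the change there was 0.17 (SE 0.10). Without control 1 the changes were 0.13 and 0.15.

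Markers of other tissues differed among the arrays, and they are set beside the members here. The summed level of the blood markers (Hbb, Alas2 and Slc4a1, 3 of 6 listed) was 2.60, 3.03, 3.54 and 2.26 on HI 1 to HI 4, against 2.17, 1.81, 1.90 and 1.78 on control 1 to control 4. It did not overlap between the groups, and its order within the HI group was that of Sgk1. That match was picked out after the values were seen. Among the controls the orders differed: control 3 was above control 2 in the blood sum but just below it in Sgk1 (1.40 against 1.41). The summed level of the meningeal markers (6 of 7 listed) was 3.75, 7.24, 5.51 and 5.37 on the HI arrays, against 3.43, 5.22, 3.18 and 3.41 on the controls. HI 2, the array with the highest Sult1a1, was the highest in meningeal markers. Control 2, the control with the highest meningeal sum, had the highest Sult1a1 level of the controls, -0.66. Igf2 sets most of the meningeal sum on every array, and was at 5.07 on control 2. Col1a2 and Dcn were highest among the controls on control 1, which had the lowest Sult1a1 level, -1.07. HI 4 was above HI 1 in the meningeal sum (5.37 against 3.75) but below it in Sult1a1 (-0.30 against -0.11). The difference in that sum rests mostly on Igf2, at 5.14 on HI 4 and 3.17 on HI 1. Col1a2 (1.90 against 1.46) and Dcn (0.82 against 0.23) had the same order. Ttr, a choroid plexus marker, was at 7.83 on HI 4, 7.62 on control 2 and 0.11 on HI 1. On HI 2, where Igf2 was highest at 6.68, Ttr was at 3.86. The part of choroid plexus in the Igf2 level was not tested. The choroid plexus markers (3 of 5 listed, with Clic6 not well above background) ran from 0.37 to 8.04 on HI arrays and from -0.77 to 7.67 on controls. The endothelial sum (4 of 6 listed, with Pecam1 not well above background) ran from 3.62 to 4.05 on HI arrays and from 3.68 to 3.82 on controls. Its genes differed: Kdr had a change of -0.57 (SE 0.21) without overlap, and Cldn5 and Slco1a4 had changes of 0.40 and 0.34. The astrocyte sum (5 of 5) ran from 6.24 to 6.38 on HI arrays and from 6.24 to 6.33 on controls, and Slc1a3, the brightest of the list, sets most of it. The other astrocyte markers went both ways: S100b had a change of -0.96 (SE 0.20, adjusted p = 0.0956) and Aqp4 one of -0.27, both lower without overlap, Aldh1l1 one of 0.23, higher without overlap, and Gfap one of 0.51 (SE 0.36). Of the 5 GABAergic markers 1 was above 0, and Gad2 had a change of -0.67 (SE 0.16), lower without overlap. Of the 3 glutamatergic markers 1 was above 0. Of the 5 oligodendrocyte markers 2 were above 0, and Mog had a change of -0.62 (SE 0.22), lower without overlap. Of the 5 microglial markers 4 were above 0, and Itgam had a change of 0.80 (SE 0.25), higher without overlap. The part of these cell types, of blood and of meninges in the members' changes was not tested.

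**Figure D3:**
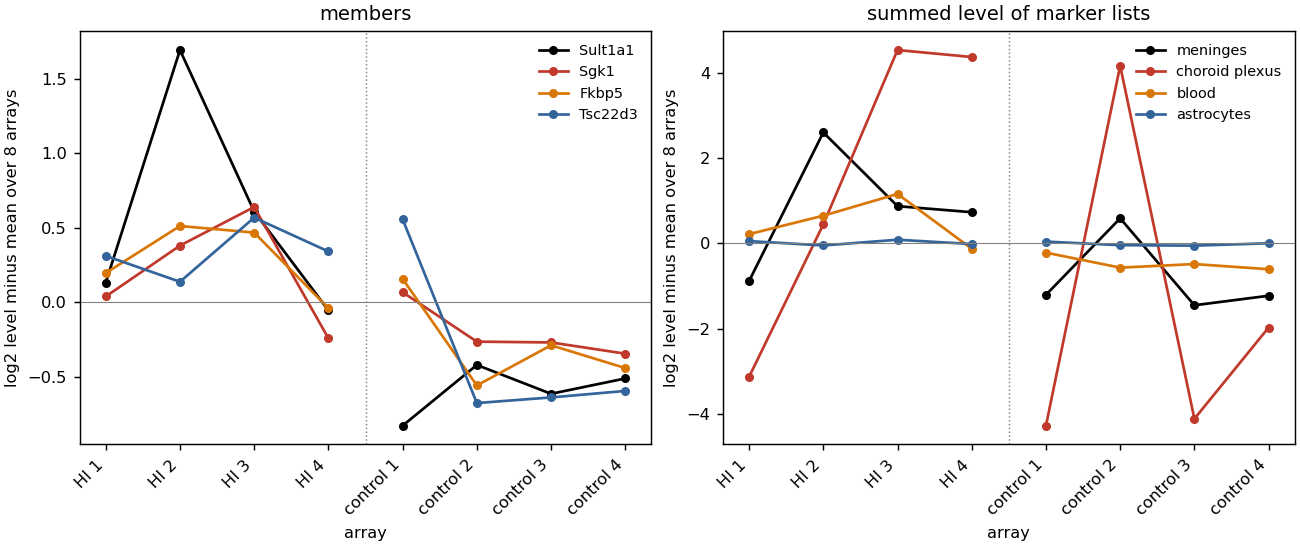
Level on each array minus the mean over all 8 (log2, vertical axes) for 4 members at the left and for the summed level of 4 marker lists at the right, with HI arrays left of the dotted line and controls right of it. Sult1a1 and the meningeal markers are highest on HI 2, Sgk1 and the blood markers on HI 3, and the astrocyte sum, set mostly by Slc1a3, stays between 6.24 and 6.38.

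A wider list of genes raised by glucocorticoids in various tissues held 65 symbols, some of them further names of a listed gene, such as Ctgf for Ccn2. Of these symbols 45 matched a probe and 38 were tested, Sult1a1 and Ddit4 among them. At an unadjusted p under 0.05, 11 were higher and 1 lower in HI cortex, against 4.44% and 6.15% of all genes. The list's median change was 0.34, against -0.03 over all genes, and 27 of 38 were above 0, or 71.1% against 47%. This list, like those below, was chosen with earlier results of these data known, so its shares are not an independent test. The count of 12 was 19 without control 1 (16 higher and 3 lower of 39 tested, where 20.6% of all genes reached that level) and 7 without HI 3, where 7.2% of all genes did. The median was 0.21 with normexp and 75th percentile scaling. Of the 38 genes, 34 were well above background on all 8 arrays, and of these 11 were higher and 0 lower. The 1 gene of the list past the adjusted test was Fbxo32, a muscle-atrophy ubiquitin ligase subunit, lower in HI cortex. It had passed the filter only through the control arrays, where it is brighter. Its level was -4.46, -4.28, -4.03 and -4.71 on the HI arrays, against -3.09, -3.50, -3.56 and -3.30 on the controls. The groups were well apart but the signal was dim, and 3 of 4 HI arrays were well above background. The log2 change was -1.01 (SE 0.18) with limma's adjusted p at 0.0485. It was -0.20 (adjusted p = 0.346) with normexp and quantile scaling and -0.41 (adjusted p = 0.423) with normexp and 75th percentile scaling. The adjusted p was 0.0532 with the authors' table, 0.108 with no filter, 0.0995 with an intensity trend and robust prior and 0.3 with the replicate block, and with the filter on all 8 arrays the gene was not tested. The adjusted p was 0.0324 without control 1 and between 0.0607 and 0.177 without any other single array, so the call was lost when any array but control 1 was left out.

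The list also holds genes that other systems share, and these were chosen for mention after their values were seen. Rhob, a small GTPase, was at 1.74, 1.85, 1.81 and 1.83 on the HI arrays, against 1.43, 1.20, 1.20 and 1.21 on the controls. The change was 0.55 (SE 0.10) with limma's adjusted p at 0.0578, and 0.61 with an adjusted p of 0.00188 without control 1. Under the 11 alternatives that keep all arrays, limma's adjusted p for Rhob ran from 0.000489 to 0.39 and was under 0.05 in 7. Gjb6, a connexin of astrocytes, had a change of 0.88 (SE 0.21, adjusted p = 0.157), and its groups did not overlap. The clock gene Per1, which glucocorticoids induce directly, had a change of 0.51 (SE 0.23, adjusted p = 0.498), and 0.27 without control 1.

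Genes of the receptor complex (heat shock proteins, co-chaperones and immunophilins, 17 of 28 tested, with Nr3c1, Nr3c2 and Fkbp5 among them) went both ways, and their median change was 0.04. At an unadjusted p under 0.05, 4 were higher and 2 lower, against 4.44% and 6.15% of all genes, and none passed the adjusted test. Beside Fkbp5 and Nr3c1, the smallest p belonged to Hspa4, an Hsp70-related exchange factor, with a change of -0.34 (SE 0.13), and to the stress-induced chaperone Hspa1a, at 0.47 (SE 0.18). The count of 6 was 11 without control 1 (7 higher, 4 lower), where 20.6% of all genes reached that level. It was 3 without HI 1, HI 4, control 3 or control 4, 2 without HI 2 or control 2, and 1 without HI 3, where 7.2% to 11.3% of all genes did.

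Genes of corticosteroid metabolism and transport (8 of 16 tested, Hsd11b1 among them) had a median change of 0.35, or 0.19 without control 1 and 0.02 with normexp and 75th percentile scaling. With no filter on dim probes the median was 0.07 over 15 genes. Of the 8, 5 were well above background on all arrays, while Abcb1b, Hsd11b2 and Star passed the filter only through the HI arrays. None of the 8 had an unadjusted p under 0.05, and the count was 1 without HI 1 or without control 2. By p, Hsd11b1 was followed by Abcb1b, an efflux pump that carries corticosteroids, with a change of 0.40 (SE 0.26), by Tspo, a mitochondrial protein linked to steroid synthesis, at 0.48 (SE 0.35), and by Srd5a2, a steroid reductase, at 0.93 (SE 0.69). Leaving out 1 array moved these changes to as low as 0.26 for Tspo (without control 1), 0.53 for Srd5a2 (without HI 2, and 1.45 without HI 1) and 0.20 for Abcb1b (without HI 2). The direction for Abcb1b turned to -0.041 with normexp background correction and 75th percentile scaling.

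Among stress peptides and their receptors (10 of 17 tested) the median change was 0.37, or 0.23 without control 1. It turned to -0.04 with normexp and 75th percentile scaling and was 0.11 with normexp and quantile scaling, and 0.16 over the 6 genes well above background on all 8 arrays. Crhbp, which binds corticotropin-releasing hormone outside the cell, had a change of 0.86 (SE 0.27, unadjusted p = 0.0135, adjusted p = 0.299 by limma) and was the 1 gene of 10 under an unadjusted p of 0.05, a share near the 10.6% of all genes. There were 2 such genes of 10 without HI 2, without control 1 or without control 2, where 8.05%, 20.6% and 11.3% of all genes reached that level. The melanocortin receptor Mc4r, well above background on 4 HI arrays and 2 control arrays, passed the filter only through the HI arrays. Its change of 0.80 (SE 0.37) was 0.44 without control 1 and 0.0045 with normexp and 75th percentile scaling. Crh, the releasing hormone itself, had a change of 0.35 (SE 0.20), which turned to -0.042 with normexp and 75th percentile scaling, and the peptide gene Adcyap1 had one of -0.27 (SE 0.18). The peptide gene Avp, named after its values were seen, had the largest change of the list, 1.58 (SE 1.57). That change rested on HI 3, at 5.40, against -2.03 to -0.80 on the other arrays, and its cause was not tested.

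Of genes that glucocorticoids lower (12 of 24 tested), the median change was 0.04, and it turned to -0.02 with normexp and 75th percentile scaling and to -0.01 over the 11 genes well above background on all arrays. At an unadjusted p under 0.05, 0 were higher and 2 were lower, against 4.44% and 6.15% of all genes. These were the immediate early genes Egr1, with a change of -0.58 (SE 0.17, unadjusted p = 0.00859, adjusted p = 0.248 by limma), and Nr4a1, with one of -0.74 (SE 0.26, adjusted p = 0.35), which was -0.49 without HI 2. Fos, another immediate early gene, had a change of -0.51 (SE 0.27), -0.74 without control 1 and -0.33 without control 4. The collagen gene Col1a2, a meningeal marker as well, was at 1.46, 5.28, 1.82 and 1.90 on the HI arrays, against 1.09, 1.01, 0.69 and 0.94 on the controls. HI 2 was far above all others, and the change of 1.68 (SE 0.78) was 0.80 (SE 0.16) without it. The list's count of 2 was 4 without HI 2, of which 2 were higher and 2 lower, where 8.05% of all genes reached that level.

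**Figure D4:**
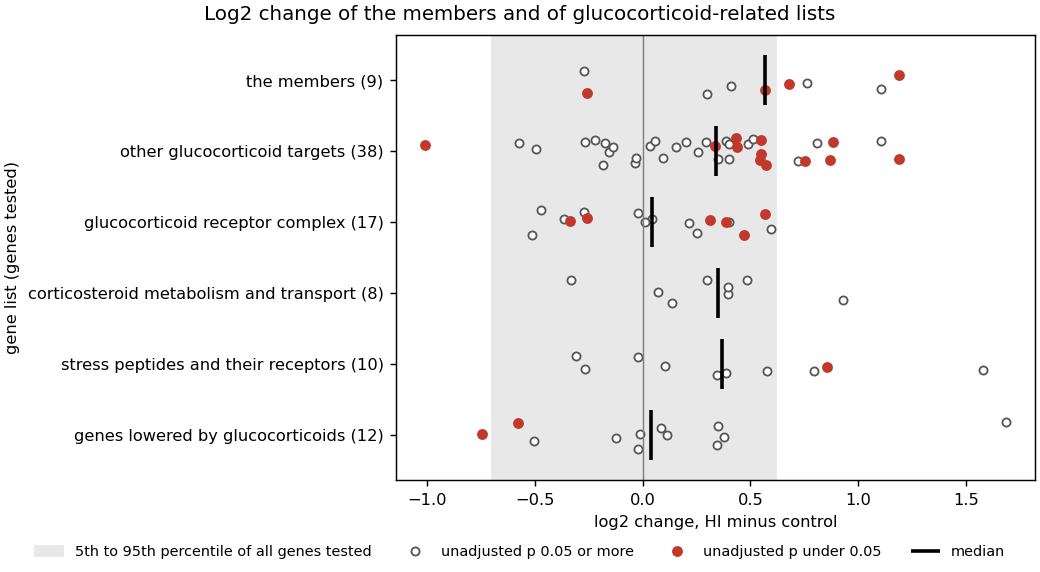
Log2 change (HI minus control, horizontal axis) of each gene tested in the members and in 5 glucocorticoid-related lists, with the median of each list as a bar and the 5th to 95th percentile of all genes as a grey band. Filled points have an unadjusted p under 0.05, and the points of the wider target list lie mostly right of 0 while those of the receptor complex lie on both sides.

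Genes whose levels ran most like a member's were sought among 5923 genes with a symbol, by Pearson's r over the 8 arrays, which share one slide per group. For Fkbp5 they were Gpr12, an orphan receptor (r = 0.986), Degs2, a sphingolipid enzyme (0.976), the steroid sulfate transporter Slc10a6 (0.969), the glucocorticoid-induced factor Klf9 (0.958) and Wfdc1 (0.955). Slc10a6 was dim, at -4.49 to -3.34, and its change of 0.60 was 0.03 with normexp and 75th percentile scaling. Gpr12 read 1.82, 2.10, 2.09 and 1.77 on the HI arrays, against 1.95, 1.34, 1.56 and 1.47 on the controls. Like the probe that represents Fkbp5, it was highest on HI 2 and HI 3 and had control 1 above the other controls. The raised control 1 belongs to that Fkbp5 probe. On the other Fkbp5 probes control 1 was the lowest control, at -0.28 and -1.93. For Sult1a1 they were Plod1, a collagen-modifying enzyme (0.981), Errfi1, an inhibitor of the EGF receptor (0.979), the cyclin Ccnd3 (0.972), the sterol hydroxylase Cyp27a1 (0.959) and Gjb6 (0.956). Errfi1 read 3.69, 4.38, 3.91 and 3.49 on the HI arrays, against 3.18, 3.22, 3.36 and 3.43 on the controls, and HI 2 was again the highest array. None of these 10 genes had an adjusted p under 0.05 (0.157 to 0.57 over the 10).

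**Figure D5:**
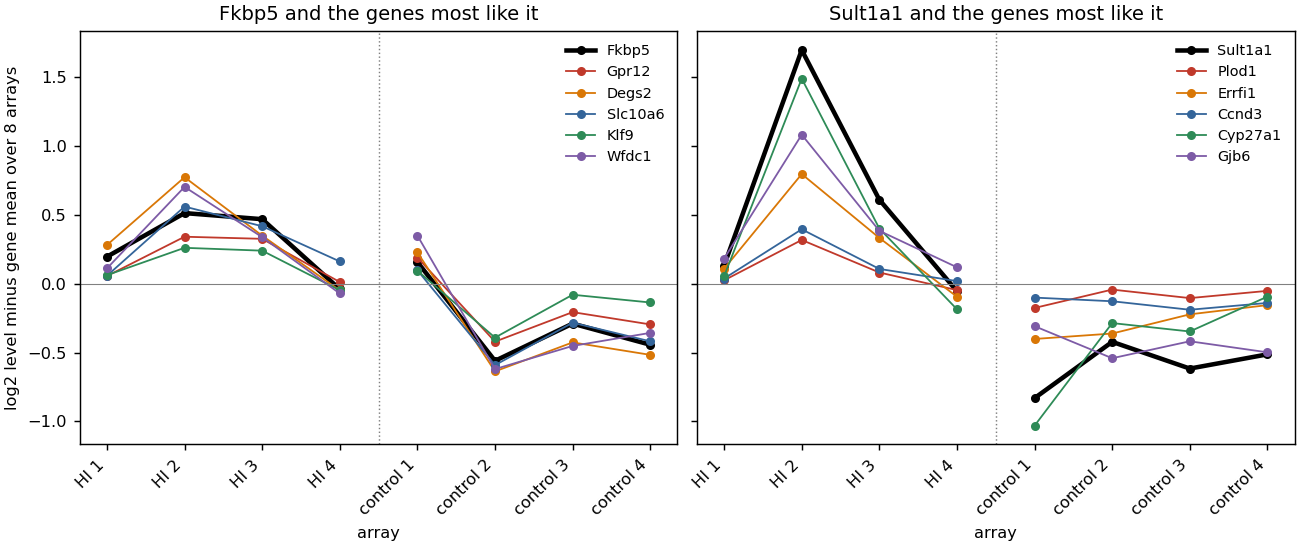
Level on each array minus the mean over the 8 arrays (log2, vertical axes) for Fkbp5 and Sult1a1, each with the 5 genes whose levels correlated best with it, HI arrays at the left and controls at the right. The Fkbp5 profiles peak on HI 2 and HI 3 and include a raised control 1, while the Sult1a1 profiles peak on HI 2. Fkbp5 is drawn from the probe that represents it, and control 1 was the lowest control on its other probes.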

How the data were processed

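Total RNA from the cortex of 8 rats was labelled with Cy3 and hybridised to 1-colour Agilent rat arrays, per the labels. Scanning output came from Agilent Feature Extraction 9.5.3.1, per the file headers. The deposited files give, per the file headers, intensity values for each spot: a processed signal with background subtracted, median spot and local background signals, and flags for spots well above background, saturated or outlying. The deposited series table holds log2 values of unstated centring. Set beside the scanner values scaled as below and centred per probe, each column had a correlation of at least 0.9997, which settled scale and direction. Its column medians were 0.48 for control 1 and -0.05 to 0.04 for the others, and it served as an alternative.

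Of 45018 spots per array, 1639 controls were left out. The processed signal was divided by its 75th percentile on that array, taken to log2 and averaged over a probe's spots, without outlying spots. This left 87 probe values missing, none of them of a member, and no member spot was saturated. Probes stayed in where 1 group or both had all 4 arrays well above background (24872 of 41012). Targets were named through RefSeq transcripts of GRCr8, which gave 10735 probes a single gene. The kept probe with the highest mean represented its gene, which left 21674 genes, 5950 with a symbol. The groups were tested by limma (lmFit and eBayes, version 3.58.1, under R 4.3.3), and p-values were adjusted over all genes by Benjamini-Hochberg. The procedure was tested on simulated data. Groups follow the sample titles, and p-values set the difference between groups against the spread within them, over these 8 animals. That difference also holds any between slides or scans.

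The members, lists and tests were chosen with earlier results of these data known. The genes named are the 10 members, the genes of each list past an adjusted p of 0.05 or else its 4 smallest p, the 5 genes most correlated with Fkbp5 and with Sult1a1, and marker genes; others are stated as chosen after their values were seen. Alternatives covered normexp background correction (offset 50, on the median spot signal), scaling, the authors' table, the filter, the rule for several probes, the prior, array weights, the replicate number as a block and each array left out. Leaving out control 1 and HI 2 together was added after seeing the data. No block for slide or scan could be fitted, since each holds 1 group.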

Additional observations from a re-analysis of the deposited data

Results flagged for a closer look

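Arrays that lay far from the other 3 of their group were sought for the members and the other genes named, by the gap to the nearest array divided by the group's range. Of 96 sets of 4 arrays, 11 passed Dixon's 95% critical value, and chance flags about 1 in 20. Control 1 was the outlying array in 8 of the 11. Of these, Slc3a2, Rab3il1, Ltbp1, Tgm2 and Kcnmb4 were in the set only for their likeness to a member without control 1. That choice favours genes that depart on control 1. The tally for control 1 is thus partly set by how the genes were picked, and 1 in 20 does not apply to it. Among the members control 1 was highest for Tsc22d3 (0.934) and lowest for Ddit4 (0.956), each on the probe that represents the gene. HI 4 was lowest on the dimmer Nr3c2 probe (0.845).

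Among other named genes control 1 was highest for Rhob (0.934), Ltbp1 (0.962) and Tgm2 (0.863), and lowest for Slc3a2 (0.861), Rab3il1 (0.845) and Kcnmb4 (0.862). HI 2 was highest for Col1a2 (0.883), and HI 1 was highest for Per1 (0.87). Both signs occurred on control 1, and its part in the difference between the groups is given by the values without it.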

How the results depend on the processing

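No member's change reversed under any alternative run, and no member passed adjustment over all genes except with array weights or without control 1 (alone or together with HI 2). With array weights 1337 genes passed (577 higher, 760 lower), and 2 members among them, Fkbp5 (log2 change 0.65, limma's adjusted p = 0.0402) and Tsc22d3 (1.02, adjusted p = 0.00112). Without control 1 and HI 2 together 706 genes passed (269 higher, 437 lower), 1 of them a member, Tsc22d3, and 6 members had groups that did not overlap. Leaving out 1 array at a time gave 116 to 793 genes past the threshold, against 199 with all arrays. It gave 0 to 1 members past it, 1 to 6 members at an unadjusted p under 0.05 and 2 to 5 whose groups did not overlap. The highest gene count, 793 (329 higher, 464 lower), was without control 1. The count of members whose groups did not overlap was 4 with normexp and quantile scaling (13.6% of all genes) and 4 with the mean of a gene's probes (14.2%). Among the other named genes, Crh turned to -0.042 and Abcb1b to -0.041 with normexp and 75th percentile scaling, and the cause was not tested.

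With the replicate number as a block, 69 genes passed (7 higher, 62 lower), and 2 members had an unadjusted p under 0.05, as did 8.52% of all genes. The numbers do not pair the samples: same-numbered arrays had correlations of their deviations of -0.16 to 0.03, and in 0 of 4 was the own number the highest. The median change over all genes ran from -0.07 to 0.05 under the other scalings and was -0.17 with no filter on dim probes. Slide and scan as a block was not run, since each holds 1 group. Pdk4 had no value to set against, its signal being at background on all arrays. For the dim probe of Fbxo32 the change was -0.20 with normexp and quantile scaling, against -1.01. That alternative differs in signal, background correction and scaling at once, and the cause was not tested.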

Other observations

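Without control 1, over 7 arrays, the genes most like Fkbp5 were Gpr12 (r = 0.992), Kcnmb4 (0.986), Fam220a (0.984), Msh5 (0.979) and Slc3a2 (0.976), so that Gpr12 alone of the 5 stayed among the first 5. Those most like Sult1a1 were Ltbp1 (0.992), Ccnd3 (0.992), Tgm2 (0.982), Rab3il1 (0.982) and Plod1 (0.981), with Ccnd3 and Plod1 in both sets. Ltbp1, which binds latent TGF-beta, and Tgm2, a transglutaminase, act in the extracellular matrix.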
